A study of Cavia porcellus with 9 samples.

Results

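The 9 genes described here encode calcium-binding proteins used to recognise and tune interneurons of the retina: secretagogin (Scgn), calbindin (Calb1), calretinin (Calb2), parvalbumin (Pvalb), the calcium-binding proteins Cabp1, Cabp2 and Cabp5, and the N-terminal EF-hand proteins Necab1 and Necab2. They were taken by symbol from a count table of 19962 genes, which holds all 9, and all 9 passed the filter on low counts that left 15469 genes for testing. The set was chosen by the levels of Scgn, which lies lower under green than under blue light, so the comparison of green with blue is given for every member as a description, and no call between them is read as a test. Retinas came from male guinea pigs (Cavia porcellus, Dunkin-Hartley, called tri-color in the labels) that lived under green, blue or white light for 8 weeks, with 12 hours of light and 12 of darkness a day, and aged 12 weeks per the labels. The animals of all groups were obtained at an age of 2 weeks. Each light has 3 RNA-seq libraries, and white light serves as the comparison for both colours. All groups share the strain, the sex, the daily cycle and the duration, and no wavelength or intensity is given in the labels.

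In each group, 2 of the 3 libraries carry the same animal number in their titles: libraries 1 and 2 of green, 2 and 3 of blue, and 1 and 2 of white. The 9 libraries thus stand for 6 animal labels, counting 2R-23 (blue) and R-23 (white) as different animals, which the labels do not state, and the p-values measure the spread between libraries, part of which is a spread within an animal. The libraries held between 62155041 and 74979806 counts. Levels are in CPM, a gene's share of its library's counts times 10 to the 6th power, with TMM factors scaling the libraries. All 21 bipolar and all 21 amacrine cell markers listed were detected in every library, and no library was set aside. The 12 listed genes of the pigment epithelium, which lies behind the photoreceptors, summed to 261 to 715 CPM in green, 512 to 700 CPM in blue and 322 to 737 CPM in white libraries. In whole retina, fewer cells of a type and less RNA per cell cannot be told apart.

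EF-hand proteins bind calcium in a helix-loop-helix pocket and act either as buffers, which shape the calcium signal of a cell, or as sensors, which change shape and act on a partner. In mammalian retinas they are classical markers: calbindin of horizontal cells and some amacrine cells, calretinin and parvalbumin of amacrine and ganglion cells in a pattern that differs by species, secretagogin of subsets of cone bipolar and amacrine cells, and Cabp5 of rod bipolar and some cone bipolar cells in the mouse. Proteins of the CaBP family modulate voltage-gated calcium channels. The cell types that express these genes in the guinea pig were not measured in these libraries.

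Scgn encodes secretagogin, a calcium sensor linked to vesicle release in endocrine cells and neurons. Its level was 16.4, 21.7 and 18.7 CPM in green libraries 1 to 3, 27.1, 27.3 and 30.6 CPM in blue libraries, and 21.01, 24.1 and 21.7 CPM in white libraries. Every green library lay below every blue library. The white libraries lay below all blue ones and overlapped the green ones, since green library 2 stood above white library 1. The raw counts behind these levels ran from 1281 to 2084. Counting error alone gives a coefficient of variation of at most 2.79% there, if each count is a single fragment.

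The group means of Scgn were 18.9 ± 2.63 CPM under green and 28.3 ± 1.94 CPM under blue light (SD, n = 3 each), and the white mean was 22.3 ± 1.64 CPM. Green minus blue was -0.58 ± 0.12 on the log2 scale (SE from the edgeR fit), a difference of -33.2%. This is the difference that chose the genes, and 1 of the 9 members had green and blue libraries that did not overlap, where 14.2% of all tested genes did so. EdgeR called 0% and DESeq2 0.265% of all genes between green and blue. Of all genes tested, 6.68% had a difference between green and blue at least this large in size.

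The differences from white use the same green and blue libraries as that choice, so they are descriptions as well. Green minus white was -0.24 ± 0.12 for Scgn, with a 95% confidence interval from -0.50 to 0.025. Blue minus white was 0.35 ± 0.12, with an interval from 0.088 to 0.61, and the 3 blue libraries lay above the 3 white ones. The blue libraries lay apart from the white ones in 9.89% of all tested genes. The mean of green and blue minus white, a comparison independent in design of green minus blue, was 0.056 ± 0.10 with an interval from -0.17 to 0.28 (edgeR adjusted p = 0.999). Averaged over the coloured lights, Scgn thus differed from white light by less than the spread between libraries.

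**Figure D1:**
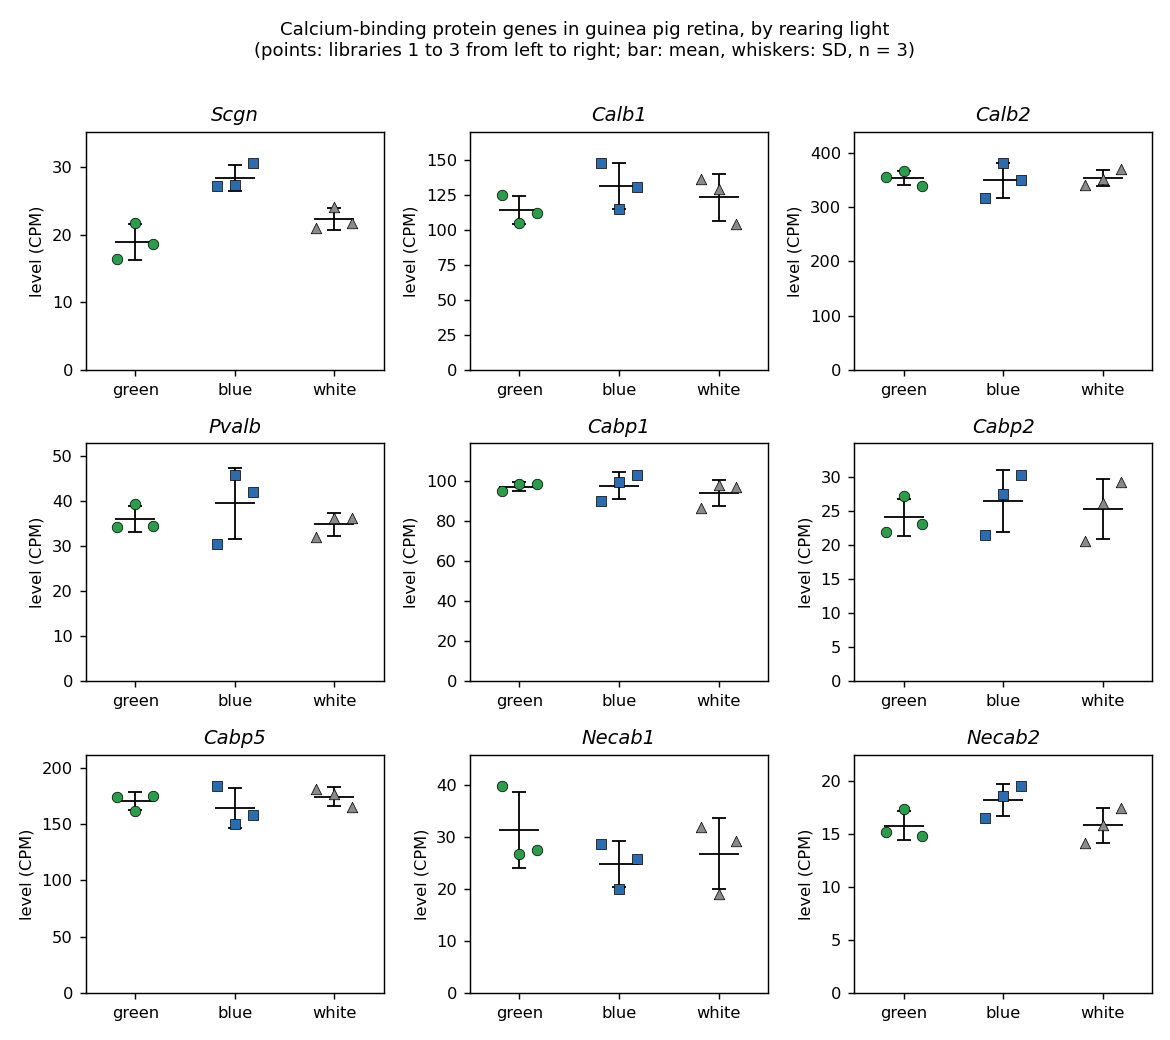
Levels of the 9 genes in CPM with TMM scaling (vertical axes from 0), in the green, blue and white libraries. Each point is a library, the bar the mean and the whiskers the SD of 3 libraries; Scgn is the member whose green libraries, at 16.4 to 21.7 CPM, all lie below the blue ones, at 27.1 to 30.6 CPM.

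The libraries of an animal differed in Scgn by a sizeable part of these differences. Animal label 11 of the green group gave 16.4 and 21.7 CPM, a log2 gap of 0.40, which is larger than the fitted difference between green and white. The gaps were 0.16 for animal label 32 of the blue group and 0.20 for animal label 6 of the white group. Both green libraries of animal label 11 carry the same eye code in their titles, and whether they come from the same retina is not stated.

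Scgn was also set against other neuronal transcripts of the same library, which needs no scaling between libraries. Per 1000 counts of the 21 bipolar cell markers there were 7.07, 8.85 and 7.46 Scgn counts in the green libraries, 11.7, 11.5 and 13.0 in the blue ones and 8.82, 9.85 and 8.86 in the white ones. Per 1000 counts of the 21 amacrine cell markers there were 10.8 ± 1.26 in green, 15.9 ± 0.850 in blue and 13.0 ± 0.795 in white libraries (SD, n = 3 each). These ratios reuse the Scgn counts that chose the genes, so their separation of green and blue is a description and no further support. Per count of Cabp5, Calb2 and Pvalb the green and blue libraries also did not overlap. Against Calb1 they overlapped, at 131 to 206 Scgn counts per 1000 Calb1 counts in green and 183 to 237 in blue.

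The level of pigment epithelium genes moved with Scgn in part. In blue libraries 1 to 3 the 12 genes summed to 512, 558 and 700 CPM, in the same order as Scgn. Their mean log2 level, centred over the 9 libraries, was 0.49, -0.020 and 0.35 there, which is not the order of Scgn. Green library 2 and white library 2 had the highest Scgn of their groups, and these had 715 and 737 CPM of the 12 pigment epithelium genes, against 261 to 275 CPM in the other green and 322 to 375 CPM in the other white libraries. The order did not hold among these others, since green library 3 and white library 3 had the lowest sums of their groups but more Scgn than library 1. With the mean log2 level of these genes as a covariate, green minus blue for Scgn was -0.46 and green minus white -0.12. The part of pigment epithelium RNA beyond this covariate was not tested.

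**Figure D2:**
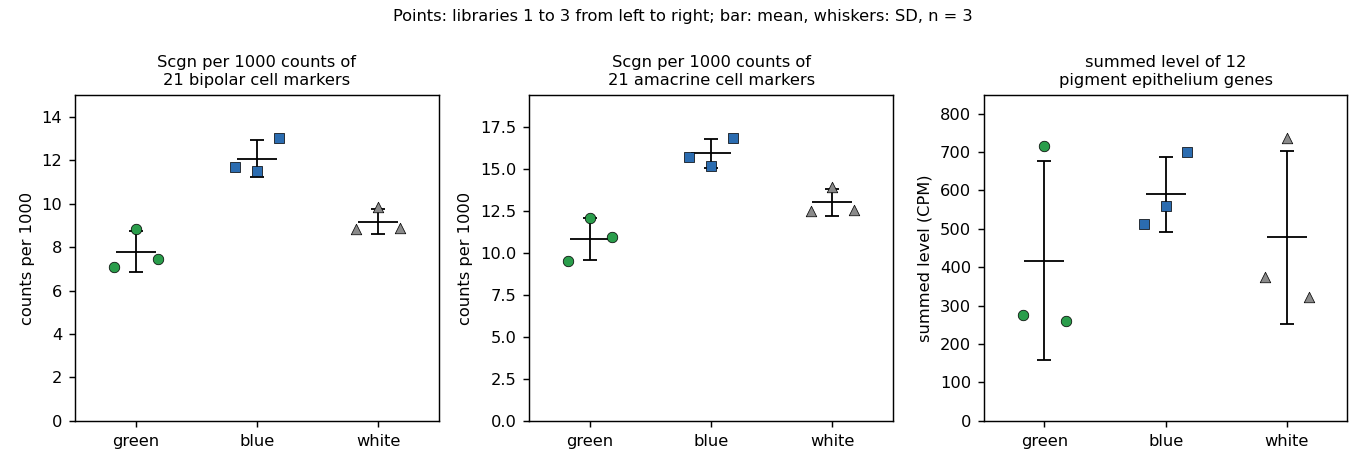
Scgn counts per 1000 counts of bipolar (left) and amacrine (middle) cell markers, and the summed level of 12 pigment epithelium genes in CPM (right), in green, blue and white libraries. Points are libraries, bars means and whiskers SDs of 3; the Scgn ratios to bipolar markers, at 7.07 to 8.85 in green and 11.5 to 13.0 in blue, do not overlap, while the pigment epithelium levels of green libraries span 261 to 715 CPM.

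The genes nearest to Scgn in their pattern over the 9 libraries were Kank4, Anxa5, Tspyl1, Ube2v1 and Fdxacb1, with Pearson's r of log2 levels from 0.934 to 0.949, the highest 5 of 12399 genes ranked. This is a description over libraries that share animals and depth, and the 5 genes are the top of a ranking of many genes over few libraries. Anxa5, which encodes a calcium-dependent phospholipid-binding annexin, averaged 40.04 ± 6.70 CPM under green, 53.0 ± 6.17 CPM under blue and 44.8 CPM under white light, and its green and blue libraries overlapped. Tspyl1 was at 61.4 ± 3.33 CPM in green, 73.1 ± 1.45 CPM in blue and 64.4 ± 1.19 CPM in white libraries (SD, n = 3 each), without overlap between green and blue. Tspyl1 was picked for its likeness to Scgn, so this separation is no independent result. Green and blue libraries lay apart in 14.2% of all tested genes. Among the other members, Necab2 came closest to Scgn at r = 0.740 and Necab1 was the farthest at r = -0.636.

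For the classical buffers, the libraries of all lights overlapped and no comparison with white passed the test. Calb2, the calretinin gene, stood at 355, 366 and 339 CPM under green, 317, 381 and 350 CPM under blue and 341, 351 and 370 CPM under white light. All 3 groups overlapped, and the group means were 353 ± 13.7 CPM under green, 349 ± 32.1 CPM under blue and 354 ± 14.7 CPM under white light. The mean of green and blue minus white was -0.012 ± 0.070, with an interval from -0.17 to 0.14, that is, from 0.892-fold to 1.10-fold.

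Calb1, the calbindin gene, was at 125, 105 and 112 CPM in green libraries, 148, 115 and 131 CPM in blue libraries and 136, 130 and 104 CPM in white libraries. The blue mean of 131 ± 16.4 CPM was the highest and the green mean of 114 ± 10.02 CPM the lowest, and the white mean was 123 ± 16.9 CPM. Green minus blue was -0.20 ± 0.12, with an interval from -0.47 to 0.063. The libraries of all 3 lights overlapped.

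Pvalb, the parvalbumin gene, was at 34.3, 39.3 and 34.5 CPM in green libraries, 30.6, 45.9 and 42.0 CPM in blue libraries and 31.9, 36.3 and 36.3 CPM in white libraries. Blue library 1 was the lowest of all 9 and blue library 2 the highest, so that the blue group spanned the other groups. The mean of green and blue minus white was 0.11 ± 0.12. Parvalbumin is also abundant in fast skeletal muscle. The 11 muscle markers present in the table summed to 55.9 to 61.3 CPM in green, 41.5 to 42.2 CPM in blue and 49.3 to 66.9 CPM in white libraries, and 5 of them were at 0 in at least 1 library. Ryr1, the calcium release channel of skeletal muscle, made up most of that sum, at 29.9 to 48.8 CPM over the 9 libraries. Of the 7 muscle markers tested, edgeR called 0 against white. In blue 6 were lower than in white and 4 had an unadjusted p under 0.05 (4.45% of all genes). In green 6 were lower and 0 had such a p (5.81% of all genes). The part of muscle RNA in the Pvalb levels was not tested.

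The CaBP genes encode sensors that act on calcium channels. Cabp5 was at 174, 161 and 175 CPM in green libraries, 184, 150 and 158 CPM in blue libraries and 181, 176 and 165 CPM in white libraries, with means of 170 ± 7.72, 164 ± 17.6 and 174 ± 8.38 CPM in that order. Its groups overlapped, and the mean of green and blue minus white was -0.060 ± 0.076. Prkca, the protein kinase C gene that marks rod bipolar cells, averaged 255 ± 21.01 CPM in green, 254 ± 5.02 CPM in blue and 255 ± 16.2 CPM in white libraries.

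Cabp1, whose longer product caldendrin is found in brain and retina, had the smallest spread of the members. It was at 94.7, 98.1 and 98.3 CPM in green libraries, 90.05, 99.2 and 103 CPM in blue libraries and 86.2, 98.0 and 96.6 CPM in white libraries. Its SD within groups was 0.084 on the log2 scale, and 10.1% of the tested genes had a smaller one. The groups overlapped, and green minus blue was -0.0055 ± 0.082.

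Cabp2 regulates calcium channels of inner hair cells in the mouse, and the gene is known from the retina too. Its level was 21.9, 27.2 and 23.2 CPM in green libraries, 21.6, 27.5 and 30.4 CPM in blue libraries and 20.6, 26.1 and 29.3 CPM in white libraries. Each group spanned most of the range of the others. Green minus blue was -0.14 ± 0.16, and the mean of green and blue minus white was -0.0056 ± 0.14 with an interval from -0.31 to 0.29.

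The Necab genes encode neuronal EF-hand proteins, and Necab2 binds an adenosine receptor and a metabotropic glutamate receptor. Necab2 was at 15.2, 17.4 and 14.9 CPM in green libraries, 16.6, 18.6 and 19.6 CPM in blue libraries and 14.1, 15.9 and 17.5 CPM in white libraries. Blue libraries were the higher ones on average, with overlap on both sides. Green minus blue was -0.21 ± 0.12, with an interval from -0.47 to 0.060, and blue minus white was 0.20 ± 0.12, with an interval from -0.062 to 0.47.

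Necab1 was the most variable member, at 39.7, 26.7 and 27.3 CPM in green libraries, 28.7, 20.03 and 25.6 CPM in blue libraries and 31.9, 19.1 and 29.2 CPM in white libraries. Green library 1 stood above all other libraries and white library 2 below them. The SD within groups was 0.33 on the log2 scale, and 88% of tested genes had a smaller one. The libraries of animal label 6, both white, differed by 0.74, which exceeds green minus blue at 0.34 ± 0.21. That difference was 0.13 when green library 1 was left out, 0.20 when blue library 2 was, 0.19 with the suffix "-B" of 2 titles as a covariate and 0.12 with the pigment epithelium covariate.

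Counted over the set, edgeR called 0 of the 9 members between green and white, between blue and white, and between the mean of green and blue and white, at an adjusted p under 0.05 over all tested genes. In each of these comparisons edgeR called 0.00646% of all genes. DESeq2 also called 0 of 9 in each, against 0.155% of genes for green and white, 0.181% for blue and white and 0.162% for the mean of both. At an unadjusted p under 0.05 edgeR had 0, 1 and 0 of the 9 members in those comparisons, against 5.81%, 4.45% and 4.41% of all genes. The 1 was Scgn between blue and white, where the blue libraries are those whose high Scgn chose the genes, so it is no independent test. Libraries did not overlap for 0 of 9 members between green and white (10.1% of all genes). Between blue and white they did not overlap for 1 of 9, again Scgn (9.89% of all genes). Between the coloured lights and white they did not overlap for 0 of 9 (2.31% of all genes).

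The directions were mixed as well. Of the 9 members, 3 were higher and 6 lower in green than in white, 6 were higher and 3 lower in blue than in white, and 5 were higher and 4 lower in the mean of green and blue. Of all tested genes, 52.4% were higher in green, 51.5% in blue and 50.9% in their mean than in white, and 49.4% were higher in green than in blue. The median log2 difference of the members from white was -0.0036 for green, 0.063 for blue and 0.054 for the mean of both, beside 0.0090, 0.0048 and 0.0032 for all tested genes. Green and blue share the white libraries in these comparisons. For the 8 members other than Scgn, the intervals of the mean of both minus white lay within -0.35 and 0.46, both bounds set by Necab1.

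**Figure D3:**
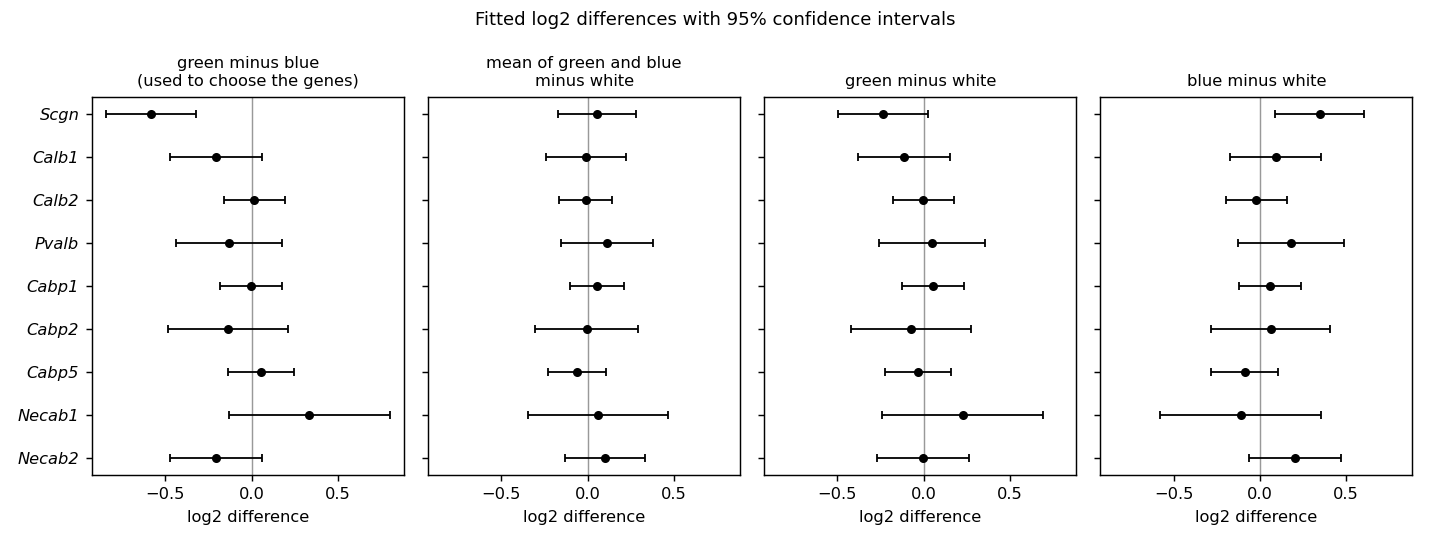
Fitted log2 differences (horizontal axes; points) of the 9 genes with 95% confidence intervals (bars) from the edgeR fit of 9 libraries, for green minus blue, the mean of green and blue minus white, green minus white and blue minus white. The Scgn interval lies below 0 for green minus blue, the comparison that chose the genes. It lies above 0 for blue minus white, from 0.088 to 0.61, which uses the same blue libraries and is no independent test. All intervals of the other 8 members include 0.

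Some members shared their extreme libraries within the groups. Library 1 of each light had the lowest level of its group for Scgn, Pvalb, Cabp1 and Cabp2, and the highest level of its group for Calb1 and Necab1. Calb2, Cabp5 and Necab2 had neither pattern. The numbers are names only and pair nothing across lights, and the pattern was picked out after the values were seen. It is common in these libraries: 14.2% of all tested genes were lowest in library 1 of every light and 16% were highest there, beside 4 and 2 of the 9 members. The same 3 libraries had the highest TMM factors of their groups, 1.046 in green, 1.016 in blue and 1.017 in white, against 0.977 to 1.00026 in the other 6, and the lowest summed level of rod and cone genes of their groups, at 66772, 78417 and 77777 CPM. Their part in the levels of the members was not tested.

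**Figure D4:**
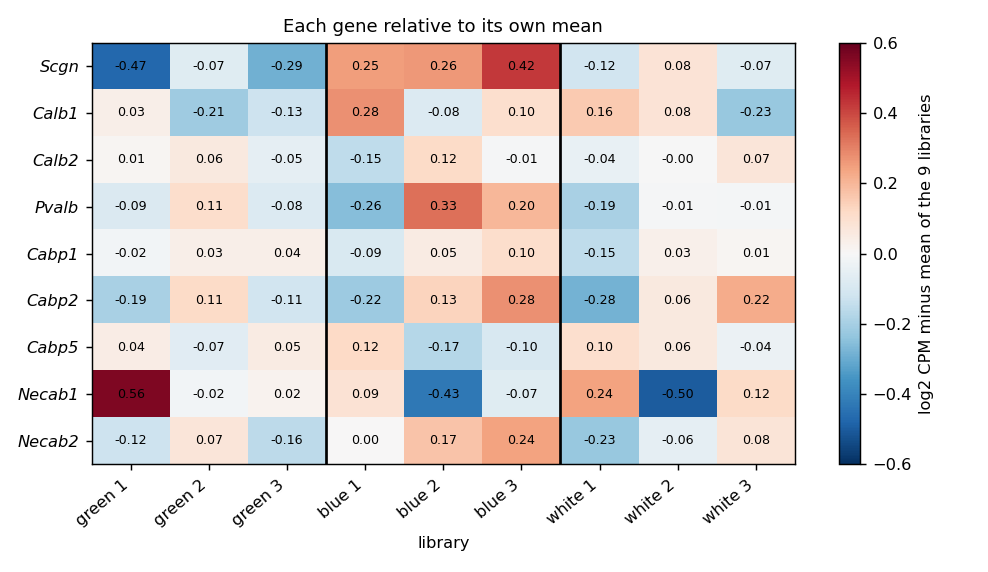
Log2 CPM of each gene (rows) minus its mean over the 9 libraries (columns, by light and library number); colour and the number in each cell give the value. Scgn runs from -0.47 in green library 1 to 0.42 in blue library 3, and Necab1 from -0.50 in white library 2 to 0.56 in green library 1.

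Other EF-hand sensors and buffers give the setting of these values. Of 36 genes listed, 33 are in the table and 32 were tested. EdgeR called 0 in green and 0 in blue against white. In each, 3 had an unadjusted p under 0.05, against 5.81% of all genes for green and 4.45% for blue. In green 22 were higher and 10 lower than in white, where 52.4% of all genes were higher. In blue 21 were higher and 11 lower, where 51.5% of all genes were higher. The median log2 difference of the mean of green and blue from white was 0.037. The recoverin gene Rcvrn, a calcium sensor of photoreceptors, averaged 2593 ± 273 CPM under green, 2721 ± 106 CPM under blue and 2541 ± 212 CPM under white light. Guca1a and Guca1b, which encode activators of the photoreceptor guanylate cyclase, differed from white by 0.011 ± 0.10 and -0.080 ± 0.12 in the mean of green and blue.

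Cabp4, the photoreceptor member of the CaBP family, was at 242, 245 and 237 CPM in green libraries, 227, 189 and 185 CPM in blue libraries and 253, 222 and 211 CPM in white libraries. Green and blue libraries did not overlap, in the direction opposite to Scgn, with green minus blue at 0.27 ± 0.096. The mean of green and blue minus white was -0.054 ± 0.083. Over the 32 tested EF-hand genes outside the members, green lay above blue without overlap for 3 and below for 3. Of all tested genes, 14.2% had green and blue libraries apart, counting both directions. The neuronal sensors Hpca and Vsnl1 overlapped among all lights, with means of 187 ± 24.9 and 80.7 ± 8.91 CPM under green, 177 ± 22.8 and 77.3 ± 7.04 CPM under blue, and 174 ± 12.2 and 78.0 ± 1.90 CPM under white light. S100a1, singled out after its values were seen, had 17, 11 and 17 counts in green libraries, 20, 25 and 23 in blue libraries and 0, 0 and 7 in white libraries, counts too low for a firm fold.

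Genes of calcium extrusion and exchange were compared too. Of 12 calcium pumps and exchangers edgeR called 0 in any comparison with white. There 0 had an unadjusted p under 0.05, against 4.41% to 5.81% of all genes. Slc24a1, the exchanger of rod outer segments, was at 782 ± 42.3 CPM in green, 745 ± 16.5 CPM in blue and 738 ± 29.1 CPM in white libraries. Atp2b1, a plasma membrane calcium pump, ranged from 82.4 to 171 CPM in green, 83.9 to 107 CPM in blue and 85.5 to 125 CPM in white libraries.

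Markers of the cell types that carry these proteins in other mammals were compared in the same way. The 21 bipolar cell markers summed to 2323 to 2503 CPM in green libraries, 2320 to 2376 CPM in blue libraries and 2381 to 2449 CPM in white libraries. Vsx1, a transcription factor of cone bipolar cells, was at 31.0 ± 2.59, 28.8 ± 1.77 and 30.3 ± 2.92 CPM in that order, and Grm6, the glutamate receptor of ON bipolar cells, at 537 ± 62.8, 470 ± 10.6 and 527 ± 32.0 CPM. The amacrine markers summed to 1707 to 1800 CPM in green, 1727 to 1816 CPM in blue and 1680 to 1735 CPM in white libraries. Gad1, which makes the transmitter GABA, was at 139 ± 8.00, 146 ± 5.36 and 141 ± 2.68 CPM, and the glycine transporter gene Slc6a9 at 349 ± 28.7, 394 ± 36.3 and 341 ± 26.8 CPM. Chat, of cholinergic amacrine cells, was at 15.2 ± 1.32, 12.2 ± 1.19 and 13.4 ± 1.83 CPM.

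The 8 horizontal cell markers in the table summed to 429 to 446 CPM in green libraries, 415 to 444 CPM in blue libraries and 423 to 432 CPM in white libraries. Lhx1 and Onecut1, transcription factors of horizontal cells, stood at most at 1.24 and 3.18 CPM in any library, so the sum rests on genes that other retinal cells may share. Ganglion cell markers summed to 1835 to 2009 CPM in green, 1684 to 1917 CPM in blue and 1758 to 1985 CPM in white libraries, and Rbpms was at 9.22 ± 0.393, 9.62 ± 0.642 and 10.6 ± 1.56 CPM. EdgeR called 0 genes of these 4 lists in any comparison with white. For green against white, 2 of 21 bipolar and 1 of 21 amacrine markers had an unadjusted p under 0.05 (5.81% of all genes). For blue against white, 1 of 21 amacrine and 1 of 12 ganglion cell markers did (4.45%). For the mean of both, 1 of 21 bipolar markers did (4.41%). Müller glia markers, of the radial glia of the retina, summed to 8266 to 9250 CPM in green and 9459 to 10664 CPM in blue libraries. These did not overlap, in the direction of Scgn, and white libraries had 8598 to 10352 CPM. Green minus blue was below 0 for 8 of the 9 Müller glia markers and above 0 for 1. Their median log2 difference was -0.25, beside -0.0025 for all tested genes. Green libraries lay below all blue ones for 3 of the 9 and above for 0. Of all tested genes, 14.2% did not overlap, counting both directions. For 5 of 21 bipolar and 5 of 21 amacrine markers green lay above blue, and for 0 below. The muscle marker sums also lay apart, with green above blue. The part of Müller glia in the Scgn difference was not tested.

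The 10 lens genes summed to 72.3 to 89.3 CPM in green, 48.6 to 82.5 CPM in blue and 29.8 to 68.7 CPM in white libraries. In the mean of green and blue, 9 of them were higher than in white (50.9% of all genes). EdgeR called 0, and 6 had an unadjusted p under 0.05 (4.41% of all genes). In green against white 7 had such a p (5.81% of all genes), and 7 did not overlap, with green higher (10.1%). In blue against white 4 had such a p (4.45%), and 1 did not overlap, with blue higher (9.89%). For the mean of green and blue against white, the 15 rod and cone genes had 7 higher and 8 lower. The 7 tested blood and microglia genes had 7 lower there, with a median log2 difference of -0.22. EdgeR called 0 in both lists, with 1 and 0 at an unadjusted p under 0.05.

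The size of the Scgn difference between green and blue varied over 21 alternatives, all fitted to the counts that chose the genes, so its sign is no sign of stability. It ran from -0.69 without library 2 of green to -0.46 with the pigment epithelium level as a covariate. Without both libraries whose titles end in "-B", library 1 of green and library 3 of white, it was -0.49, and with counts summed per animal label it was -0.58. Green minus white for Scgn ran from -0.34 to -0.12 and blue minus white from 0.29 to 0.41.

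**Figure D5:**
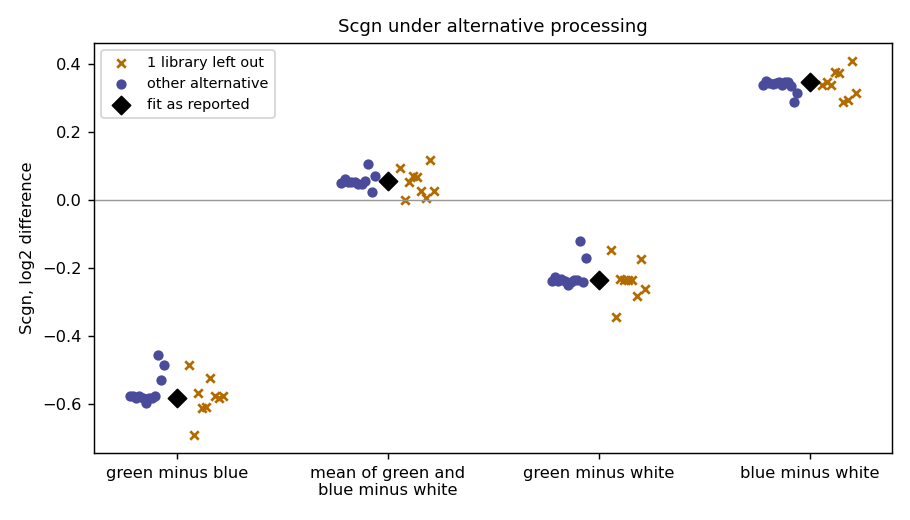
Scgn log2 differences (vertical axis) in 4 comparisons (horizontal axis) under the fit as reported (diamonds), with 1 library left out (crosses) and under the other alternatives (circles). Green minus blue, the comparison that chose the genes, runs from -0.69 to -0.46, and the mean of green and blue minus white from 0.0018 to 0.12.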

How the data were processed

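The authors deposited counts, as whole numbers with a row per gene and a column per library, per the file headers. Sources used here name no aligner, counter, strand setting, build or annotation, so overlapping or antisense genes could share reads. Per the labels' protocols, RNA was extracted with Trizol from frozen retinas and sequenced in paired ends on an Illumina HiSeq. Values of 4 occur 2014 times and values of 3 occur 472 times, so a unit may not be a single fragment; dividing by 4 was an alternative. Counts were fitted in edgeR 4.0.16 (R 4.3.3) with all 9 libraries, light as the only term, filterByExpr (minimum count 10, minimum total 15), TMM scaling and quasi-likelihood tests, with Benjamini-Hochberg adjustment over 15469 genes and a threshold of 0.05. Alternatives used DESeq2 1.42.0, limma 3.58.1, other scalings, filters, covariates and subsets. The fitting code was run on simulated counts of independent libraries, without shared animals and with larger changes than those of the members. That run does not bear on the spread or the differences of these libraries. SE is the log2 difference over the root of its F. Libraries are numbered in deposition order. No pair of libraries agreed within sampling noise. All 9 symbols match the names table of mCavPor4.1; neither sequences nor coordinates are printed. Levels are not compared between genes, as transcript lengths were not used here. Genes named are the members, the up to 4 most abundant or called genes of each list, further genes fixed by name, and the 5 genes nearest to Scgn; some of these are not reported here. Members and lists were chosen with earlier results of these data known. Lists of lens, blood and microglia, and rod and cone genes were computed as well.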

Additional observations from a re-analysis of the deposited data

How the results depend on the processing

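No paired analysis was possible because the labels give no replicate numbers, the library numbers used here are names in deposition order, and no animal label occurs in more than 1 group. None of the 9 members was called under any of the 21 alternatives against white, or the 20 for the mean of green and blue. The correlation that voom estimated within animal labels was -0.17, so that alternative did not treat libraries of a label as more alike. Between green and blue, the comparison that chose the genes, DESeq2 (0.265% of all genes called) counted 1 member, Scgn, and edgeR 0, also without single libraries. These counts use the values that chose the genes and are not read as a test. Differences near 0 changed sign with the processing, and the cause was not tested. For the mean of green and blue minus white, Cabp2 (-0.0056) was 8.9e-05 with the filter of 5 CPM, 0.023 in voom with the animal label as a block, 0.020 with the pigment epithelium level and 0.011 with the suffix "-B" in the model, and 0.13 when both "-B" libraries were dropped. Calb1 (-0.011) was 0.065 with counts summed per animal label and 0.0076 with the pigment epithelium covariate, and Calb2 (-0.012) was 0.0095 without both "-B" libraries. Leaving out single libraries gave -0.14 to 0.10 for Cabp2, -0.13 to 0.058 for Calb1, -0.047 to 0.021 for Calb2, -0.0098 to 0.089 for Cabp1 and -0.14 to 0.20 for Necab1. Of the 189 member values each for green and for blue against white, 20 and 13 changed sign, 23 of 180 did for their mean against white, and 12 of 189 did for green against blue.

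Counts of all genes called moved more than those of the members. For green against white, 1 gene was called in edgeR, 24 in DESeq2, 10 without both "-B" libraries, and 0 with the filter of 5 CPM, in voom, after division by 4, when only the 6 libraries compared were fitted, and with the pigment epithelium covariate; leaving out single libraries gave 0 to 6. For blue against white, 1 gene was called in edgeR, 28 in DESeq2, 12 without both "-B" libraries, 3 with the suffix covariate, and 0 with that filter, in voom, with division by 4 and in the fit of 6 libraries; leaving out single libraries gave 0 to 7. For the mean of green and blue against white the numbers were 1, 25 in DESeq2, 10 without both "-B" libraries, 4 with the suffix covariate and 0 with that filter, in voom and with division by 4; leaving out single libraries gave 0 to 7. For green against blue they were 0, 41 in DESeq2 and 1 each in the fit of 6 libraries and with the suffix covariate; leaving out single libraries gave 0 to 4. Counting error of the members was at most 3.23% in any library, if each count is a single fragment.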
